A study of Mus musculus with 22 samples.

Results

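Histones are the proteins that package DNA into nucleosomes, and their genes were examined here in cultured mouse neural stem cells carrying inducible or floxed alleles of the RNA-binding proteins Musashi-1 and Musashi-2. Members were taken by symbol from the ribosome footprint tables: every gene of the Hist1 to Hist4 clusters, every gene whose symbol begins with H2af, and H3f3a and H3f3b. The rule found 76 genes of 23081. Of these, 67 belong to the replication-dependent clusters, with 6 genes for linker histone H1, 19 for H2A, 18 for H2B, 11 for H3 and 13 for H4. The other 9 encode variants (H2afb1, H2afj, H2afv, H2afx, H2afy, H2afy2, H2afz, H3f3a and H3f3b). H1f0, which the rule also names, is not analysed here. Joining by Ensembl identifier gave an RNA-Seq value to 52 members, 43 of them replication-dependent, while 24 replication-dependent genes had footprint values alone.

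Replication-dependent histone genes are transcribed in S phase and, unlike nearly all other protein-coding genes, give mRNAs that end in a conserved stem-loop in place of a polyA tail. The stem-loop is bound by the protein Slbp, which takes part in processing, translation and decay of these mRNAs. Variant histones such as H3.3 (H3f3a, H3f3b) and H2A.Z (H2afz) are made throughout the cell cycle from ordinary polyadenylated mRNAs. RNA-Seq of polyA-selected RNA and Ribo-Seq, which counts the mRNA fragments protected by ribosomes without selecting for a tail, therefore see these genes differently.

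The cells were cortical neural stem cells from 129SvJae mouse embryos, grown in N2 medium with EGF, bFGF and laminin. Cells of the KH2, tetO-Msi1 and tetO-Msi2 lines carried the doxycycline-responsive transactivator R26-m2rtTA, with no Musashi cDNA in KH2 and a tetO-driven Msi1 or Msi2 cDNA at Col1A1 in the other two, and were compared with and without doxycycline (Dox, 1 µg/ml) after 72 hours. Lines C1 and C4 carried floxed alleles of Msi1 and Msi2, C4 with and C1 without a tamoxifen-inducible Cre, and were compared with and without 4-hydroxytamoxifen (4-OHT) after 48 hours. RNA-Seq was available for these 10 conditions at E12.5 and for 3 more at E13.5 (KH2 without Dox, and tetO-Msi1 without and with Dox). Ribo-Seq covered 8 conditions at E12.5, without tetO-Msi2. Each condition had 1 library, except that the untreated tetO-Msi1 cells at E13.5 had a technical repeat, which was pooled with its partner. Unless a test is named, intervals therefore cover counting error only, and a difference between conditions has no replicate check.

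RNA-Seq libraries held 7889966 to 60791605 reads in listed genes and Ribo-Seq libraries 657288 (tetO-Msi1 with Dox) to 6381242 (C1 without 4-OHT). The labels were checked on the targeted genes. Msi1 RNA was 108 RPKM (reads scaled to gene length and to the size of the library) with Dox and 19.7 without in tetO-Msi1 cells at E12.5, and 208 against 50.5 at E13.5. Msi2 RNA was 128 against 23.2 RPKM in tetO-Msi2 cells. In C4 cells with 4-OHT, Msi2 RNA was 4.54 against 39.5 RPKM, but Msi1 RNA was 9.42 against 9.46, so the gene-wide value showed the loss of Msi2 and not that of Msi1. The summed level of 8 neural stem cell markers came to 2074 to 5653 RPKM in every RNA-Seq library. The sums were 5.04 to 22.4 for 5 neuron markers, 243 to 968 for 5 glia markers and at most 0.0705 for 3 blood and microglia markers. For 4 endothelial and mesenchymal markers they were 1.32 to 127, most of it the smooth muscle actin gene Acta2.

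The sequence just after the stop codon was read from the NCBIM37 (mm9) genome to see which members carry the stem-loop. A 16-base match to the histone stem-loop consensus, on the coding strand and within 150 bases of the stop codon, was found at 63 of the 67 replication-dependent genes (94.0%), at 1 of the 9 variants, and at 0.310% of 21926 genes with an annotated stop codon. The 4 replication-dependent genes without a match were Hist1h2al, Hist1h2an, Hist2h2bb and Hist2h2be. The canonical polyadenylation signal AATAAA, searched on the coding strand within 1000 bases of the stop codon, was present at 32 of the 67 (47.8%), at 6 of the 9 variants (66.7%) and at 66.3% of all genes. A match describes these letters in this window and does not show a processing site. The sequences below are those of the genes on which the comparison of polyA RNA with footprints turns, each read 5′ to 3′ on the coding strand, with the stem-loop or AATAAA in capitals.
Hist1h1e, stem-loop, chr13:23713646-23713671, minus strand: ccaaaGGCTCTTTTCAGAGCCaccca
Hist1h1c, stem-loop, chr13:23831376-23831401, plus strand: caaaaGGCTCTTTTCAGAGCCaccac
Hist1h1c, AATAAA, chr13:23832201-23832226, plus strand: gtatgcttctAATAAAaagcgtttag
Hist3h2a, stem-loop, chr11:58768669-58768694, plus strand: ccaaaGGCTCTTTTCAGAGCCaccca
Hist3h2ba, stem-loop, chr11:58762846-58762871, plus strand: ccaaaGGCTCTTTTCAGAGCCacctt
Hist3h2ba, AATAAA, chr11:58762999-58763024, plus strand: taatggtattAATAAAtttggttcaa
H2afx, stem-loop, chr9:44143318-44143343, plus strand: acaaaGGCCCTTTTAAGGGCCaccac
H2afj, AATAAA, chr6:136757285-136757310, plus strand: gtccgcagccAATAAAgtcggtgaaa
H3f3b, AATAAA, chr11:115884378-115884403, minus strand: gtccttttgcAATAAAactggttatg
Hist1h1c and Hist3h2ba hold both elements, the stem-loop 25 and 29 bases and the AATAAA 855 and 187 bases after the stop codon. Hist1h1e and Hist3h2a have the stem-loop, 41 and 42 bases after the stop codon, and no AATAAA in the window. H2afx, whose product is phosphorylated at DNA breaks, is the variant with a stem-loop and has no AATAAA in the window. Its capitals differ from the core shared by 39 members, which Hist1h1e, Hist1h1c, Hist3h2a and Hist3h2ba all carry.

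Most replication-dependent members lie close together and are near copies of each other. On NCBIM37, 55 of the 67 are on chromosome 13, 9 on chromosome 3, 2 on chromosome 11 and 1 on chromosome 6. Only 14 of the 67 had at least 50% of the 31-base windows of their coding exons present once in the genome, and 12 had none. By family, 6 of 6 H1 genes reached that level, with a median of 83.5% of windows, against 3 of 19 for H2A, 3 of 18 for H2B, 0 of 11 for H3 and 2 of 13 for H4. Reads in most core histone genes therefore cannot be assigned to 1 gene. The exceptions, with at least 50% of windows unique, were Hist1h2aa, Hist2h2ab and Hist3h2a for H2A, Hist1h2ba, Hist2h2bb and Hist2h2be for H2B, and Hist2h4 and Hist4h4 for H4. Their other windows are shared, so these mostly unique genes can also list reads of other genes. Members with identical coding exons had almost the same footprint counts in every library: Hist1h2ao and Hist1h2ap differed by at most 1 read, Hist1h2bq and Hist1h2br by at most 2, and Hist2h2aa1 and Hist2h2aa2 by 0. The pair Hist1h4m and Hist1h4n differed by up to 194 reads, or 4.94%.

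RNA-Seq treated such repeats otherwise. Of the 52 members with an RNA-Seq row, 9 had no 40-base window that occurs once in the genome, and 8 of these 9 were listed at 0 in every RNA-Seq library, among them the variant H2afz. The exception was H3f3a. Of the other 43 members, 0 were listed at 0 throughout. A low RNA value of a repeated gene is therefore to be read beside its uniqueness.

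Many replication-dependent histone genes had footprint levels among the highest of all genes, in a count where near-identical copies each list the same reads. In the 4 KH2 and tetO-Msi1 libraries, 55 to 58 of the 100 genes with the highest footprint RPKM were replication-dependent histone genes. The C1 and C4 lines had 8 (C1 without 4-OHT), 37 (C1 with 4-OHT), 25 (C4 without 4-OHT) and 47 (C4 with 4-OHT). The C1 library without 4-OHT was thus far below the others in this count. Of the 13 mostly unique genes with more than 5 reads, 7, 7, 5 and 4 were in the top 100 in KH2 without and with Dox and tetO-Msi1 without and with Dox, and 0 in each C1 and C4 library. They were Hist1h1c, Hist1h1d, Hist1h1e and Hist3h2a in all 4 of those libraries, Hist2h2bb in 3, and Hist1h2ba and Hist2h2ab in 2. The median of the 13 was 51.2 to 219 RPKM over the 8 libraries, against 176 to 700 for all 67 replication-dependent genes. Footprint values existed for 74 of the 76 members: Hist1h1t, the testis-specific H1, had at most 5 reads in any library, and H2afb1, another gene of the male germ line, had 0.

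The family medians of footprint RPKM were highest for H2B in KH2 and tetO-Msi1 cells, at 1149 and 1101 in KH2 without and with Dox and 1093 and 668 in tetO-Msi1. In C1 and C4 cells the H2B median was 454 and 296 without and with 4-OHT in C1, and 166 and 332 in C4. For H4, which pairs with H3 in the nucleosome core, the medians were 701 and 683 in KH2, 733 and 478 in tetO-Msi1, 608 and 386 in C1, and 215 and 438 in C4. The H4 median was thus below that of H2B in every KH2 and tetO-Msi1 library and above it in every C1 and C4 library. H2A medians were 199 to 748, and H3 medians 170 to 625, with the lowest value of each in C4 without 4-OHT. H1, the linker histone, which binds outside the core particle, had medians of 95.8 to 317, below the other families in all 8 libraries. The families differ in how far copies share reads, and among mostly unique genes the order was the opposite: the median of the 5 H1 genes was above that of the 8 core genes, 47.9 to 171 RPKM, in all 8 libraries.

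**Figure D1:**
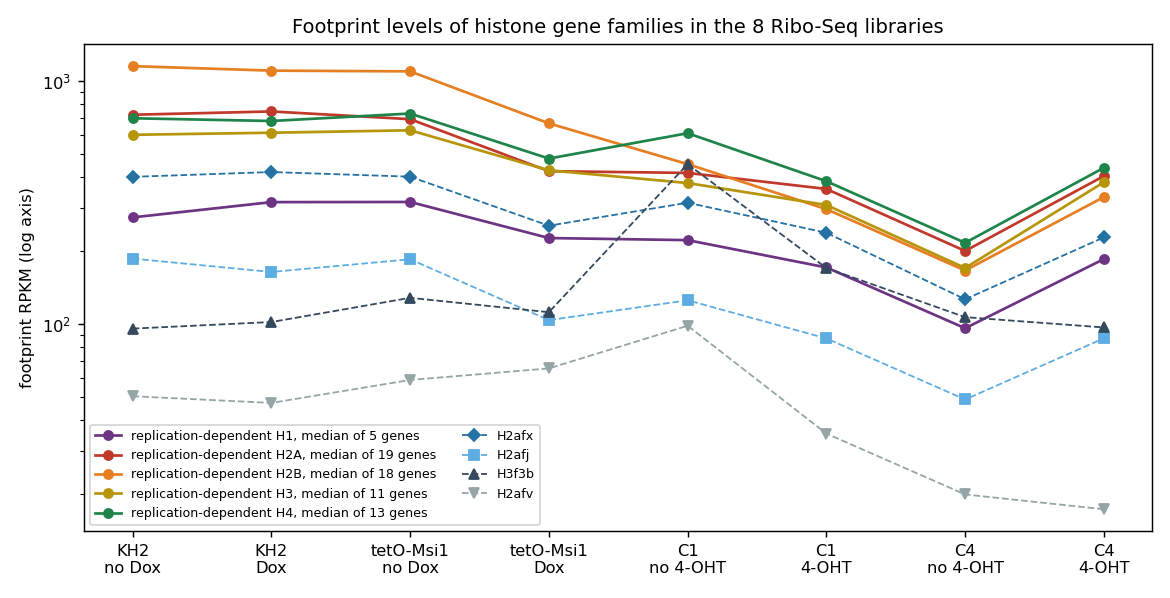
Footprint RPKM (log axis) in the 8 Ribo-Seq libraries, as the median of each replication-dependent family (solid lines, circles) and for 4 variants (dashed lines), 1 library per point. The families lie lowest in C4 without 4-OHT, at 95.8 to 215, while H3f3b is highest in C1 without 4-OHT, at 454.

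The H1 genes can be read more nearly singly than most core genes. Of their 31-base windows, 99.7% were unique for Hist1h1a, 95.6% for Hist1h1b, 71.3% for Hist1h1c, 69.4% for Hist1h1e and 65.4% for Hist1h1d. The rest can hold reads of other genes. Hist1h1d, the gene for H1.3, had footprint values of 417 and 477 RPKM in KH2 without and with Dox, 474 and 292 in tetO-Msi1, 225 and 171 in C1 without and with 4-OHT, and 103 and 200 in C4. Hist1h1c, the gene for H1.2, had 320, 386, 408, 275, 221, 170, 95.8 and 185 RPKM in the same order. Hist1h1e, the gene for H1.4, had 274, 317, 317, 225, 299, 197, 113 and 185 RPKM. All 3 were lowest in C4 without 4-OHT and, apart from Hist1h1e in C1 without 4-OHT, were higher in the KH2 and tetO-Msi1 libraries than in C1 and C4 libraries. Hist1h1b (H1.5) ranged from 44.5 to 191 RPKM and Hist1h1a (H1.1) from 26.9 to 78.6, and Hist1h1a was the lower of the pair in all 8 libraries.

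Among the core histones the leading genes by footprint reads were Hist1h2ad, Hist1h2ae and Hist1h2ab for H2A, Hist1h2br, Hist1h2bq and Hist1h2bp for H2B, Hist2h3c1, Hist1h3i and Hist1h3b for H3, and Hist1h4h, Hist1h4i and Hist1h4k for H4. Hist1h2ad ranged from 242 to 822 RPKM, Hist1h2br from 209 to 1317, Hist1h2bp from 166 to 1189, Hist1h3i from 196 to 699 and Hist1h4h from 247 to 964. Hist2h3c1 had 28804 footprint reads over the 8 libraries, about as many as the 28801 of Hist1h3i, but a lower level per length, 77.5 to 314 RPKM. Hist1h2br, Hist1h2bq, Hist1h2bp and Hist2h3c1 each list 2 overlapping coding exons, and their read counts appear to include the overlap more than once. In KH2 without Dox, Hist1h2br had 10812 reads at 1317 RPKM and Hist1h2bg 5444 reads at 1320. The lead of these genes by reads is therefore no sign of a higher level. Per length, Hist1h2bp lay below Hist1h2bg, at 195 to 1320 RPKM. Hist4h4, an H4 gene on chromosome 6 away from the large clusters, was much lower, with 56.5 and 55.3 RPKM in KH2, 113 and 74.6 in tetO-Msi1, 20.5 and 17.4 in C1 and 15.3 and 14.0 in C4. Its highest value was in untreated tetO-Msi1 cells.

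Of the variants, H2afx had 402, 421, 403, 253, 315, 237, 126 and 227 RPKM in the order used above. It was the variant nearest the replication-dependent median in KH2, tetO-Msi1 and C4 with 4-OHT, while H3f3b was nearest in C1 without 4-OHT and H3f3a in C1 with 4-OHT and C4 without it. H2afj, an H2A variant gene, had 185, 163, 184, 103, 125, 87.0, 48.8 and 87.1 RPKM. Both H2afx and H2afj were lowest in C4 without 4-OHT, as the replication-dependent families were. Part of their 31-base windows (70.1% and 63.9% unique) is shared, so both can also list reads of other genes. H3f3b, which encodes H3.3, had 95.5, 102, 128, 112, 454, 170, 106 and 96.5 RPKM and was highest in C1 without 4-OHT. H3f3a, which encodes the same protein, had 178 to 264 RPKM in 7 libraries and 722 in C1 without 4-OHT. The macroH2A genes H2afy and H2afy2 were low throughout, at 6.64 to 42.0 and 3.93 to 17.0 RPKM. H2afv, an H2A.Z gene, had 17.2 to 98.1 RPKM, and H2afz had 69.6 to 259, both highest in C1 without 4-OHT.

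In polyA-selected RNA the same replication-dependent genes were close to absent. At E12.5 the median of the 43 replication-dependent members with an RNA-Seq row was at most 0.0693 RPKM in any library, and 5 of the 43 reached 1 RPKM in each library. Between 13 and 24 of the 43 were listed at 0. The 14 mostly unique genes (by 40-base windows, as fit RNA-Seq) had medians of 0.167 to 0.283 RPKM, and 4 or 5 of them reached 1 RPKM. By contrast 7 of 9 variants reached 1 RPKM in every library. Across all genes, 44.4% to 48.5% reached 1 RPKM in the E12.5 libraries.

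Hist1h1c, Hist3h2a and Hist3h2ba were the replication-dependent genes with most polyA RNA. Hist3h2a (H2A) had 9.21, 12.3 and 15.6 RPKM at the lowest, median and highest of the 10 E12.5 conditions. Hist3h2ba (H2B) had 15.5 to 24.2 RPKM in the KH2, tetO-Msi1 and tetO-Msi2 libraries and 6.82 to 9.65 in the C1 and C4 libraries, with no overlap. Hist1h1c had 7.04, 14.8 and 22.0 RPKM. Hist2h2be, an H2B gene with no stem-loop match, had 1.67, 2.71 and 4.45 RPKM. Hist1h2ba, a testis-type H2B gene, had 1.42 to 3.55 RPKM in 8 of the conditions and 0 in both tetO-Msi2 conditions. Of these 5, Hist1h1c and Hist3h2ba have both a stem-loop and AATAAA, where 47.8% of all replication-dependent genes have AATAAA in the window. Hist1h4j and Hist4h4 also have both, and had at most 0.14 and 0.21 RPKM at E12.5. The other H1 genes were far lower, at 0.06 to 0.49 RPKM for Hist1h1e, 0.09 to 0.37 for Hist1h1b, 0.12 to 0.35 for Hist1h1d and 0 to 0.26 for Hist1h1a.

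The contrast of the assays was measured for each gene as log2 of footprint RPKM over polyA RNA RPKM, with 0.5 added to each. Genes needed more than 5 footprint reads, which 42 replication-dependent members and 8 variants had. In untreated KH2 cells the median ratio was 10.16 for replication-dependent genes, 0.89 for variants and −1.62 for all genes. Over the 8 conditions the replication-dependent median ran from 8.27 to 10.28 and the variant median from −0.42 to 1.36. The difference of the medians was 8.38 to 9.43. All 42 replication-dependent genes lay above the variant median in all 8 conditions, and 27 to 34 of them above the highest variant, which was H2afz, a gene listed at 0 in RNA-Seq. Most replication-dependent genes had an RNA level far below the added 0.5, so the size of these ratios follows that constant. The assays also listed repeated sequence differently, as given above, so ratios of repeated genes hold that difference too.

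Genes with mostly unique sequence showed a contrast in the same direction, with lower medians in both classes. The 12 replication-dependent genes with at least 50% of 31-base windows unique had medians of 5.50 to 7.25, against −2.63 to −0.19 for the 5 such variants. Hist3h2ba, with 38.2% of 31-base and 50.6% of 40-base windows unique, is not in this set. The 5 variants leave out H2afz, H3f3a and H3f3b. The difference of the medians was 6.76 to 8.86. Without any constant, in genes with more than 5 reads in both assays, the median ratio of 7 to 15 replication-dependent genes was 5.29 to 9.86 and that of 7 variants −1.08 to 0.85.

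Single H1 genes lay near or below the class median. The ratio of Hist1h1d was 7.16, 8.59 and 9.59 at the lowest, median and highest of the 8 conditions, and that of Hist1h1e 7.12, 8.51 and 8.94. Hist1h1b had 6.26, 7.42 and 7.97, and Hist1h1a 5.65, 6.56 and 7.19. The genes with polyA RNA were lower: Hist1h1c had 2.35, 3.89 and 5.19, Hist3h2a 2.71, 4.04 and 5.31, Hist2h2be 3.21, 4.49 and 5.15, and Hist3h2ba 1.70, 2.24 and 2.66. Hist3h2ba lay within the range of the variants in every condition.

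Among the variants the ratio was lowest for the macroH2A gene H2afy, at −3.65, −2.18 and −1.29, near the median of all genes. H2afv had −2.81, −1.43 and −0.19, and H3f3b −1.08, −0.53 and 0.85. H2afx was higher, at 1.83, 2.60 and 3.10, and overlapped the range of Hist3h2ba. H2afj, with AATAAA and no stem-loop match, had 0.10, 2.01 and 3.43. The value of H3f3a, 2.58 to 5.62, stands beside its lack of any unique 40-base window.

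**Figure D2:**
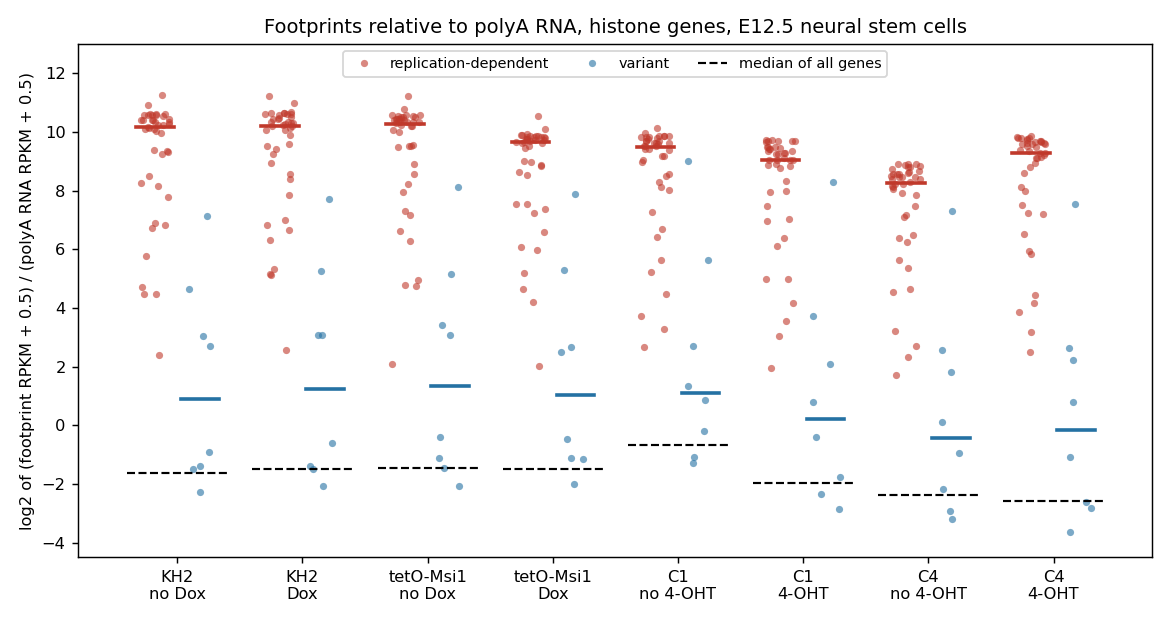
Log2 of (footprint RPKM + 0.5) over (polyA RNA RPKM + 0.5) for each replication-dependent gene (red, n = 42) and variant (blue, n = 8) in the 8 E12.5 conditions, with class medians as bars and the median of all genes as a dashed line. Replication-dependent medians lie at 8.27 to 10.28 and variant medians at −0.42 to 1.36, and the highest variant in each condition is H2afz.

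PolyA RNA of replication-dependent genes was higher in the E13.5 libraries. The median of the 43 genes was 0.226 to 0.550 RPKM at E13.5, and 10 to 13 of them reached 1 RPKM, against 5 at E12.5. Of the 36 with at least 1 read in some library, 24 were higher in each of the 3 E13.5 conditions than in any of the 10 E12.5 conditions, where 16.0% of all genes were, and 3 of 8 variants were. Among mostly unique genes 7 of 14 were, namely Hist1h1a, Hist1h1b, Hist1h1d, Hist1h1e, Hist2h2bb, Hist3h2a and Hist4h4, and 3 of 6 variants. Hist1h2af, an H2A gene, had 11.2, 27.5 and 25.7 RPKM in E13.5 KH2, untreated tetO-Msi1 and Dox-treated tetO-Msi1 cells, and 0.13 to 1.56 at E12.5. Hist1h1e had 3.19, 2.71 and 2.10 RPKM at E13.5, and Hist1h1b 1.57, 1.87 and 1.02. Neither overlapped its E12.5 range given above. The leading H3 genes by polyA RNA, Hist1h3e and Hist1h3d, had 1.23 to 1.63 and 0.64 to 0.77 RPKM at E13.5 and at most 0.30 and 0.14 at E12.5. Hist4h4 had 0.74 to 1.58 RPKM at E13.5 and at most 0.21 at E12.5, while the H4 gene Hist1h4j overlapped, with 0.13 to 0.42 and at most 0.14. Hist3h2ba was lower at E13.5, with 6.36 to 8.95 RPKM, than in the KH2 and tetO lines at E12.5.

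**Figure D3:**
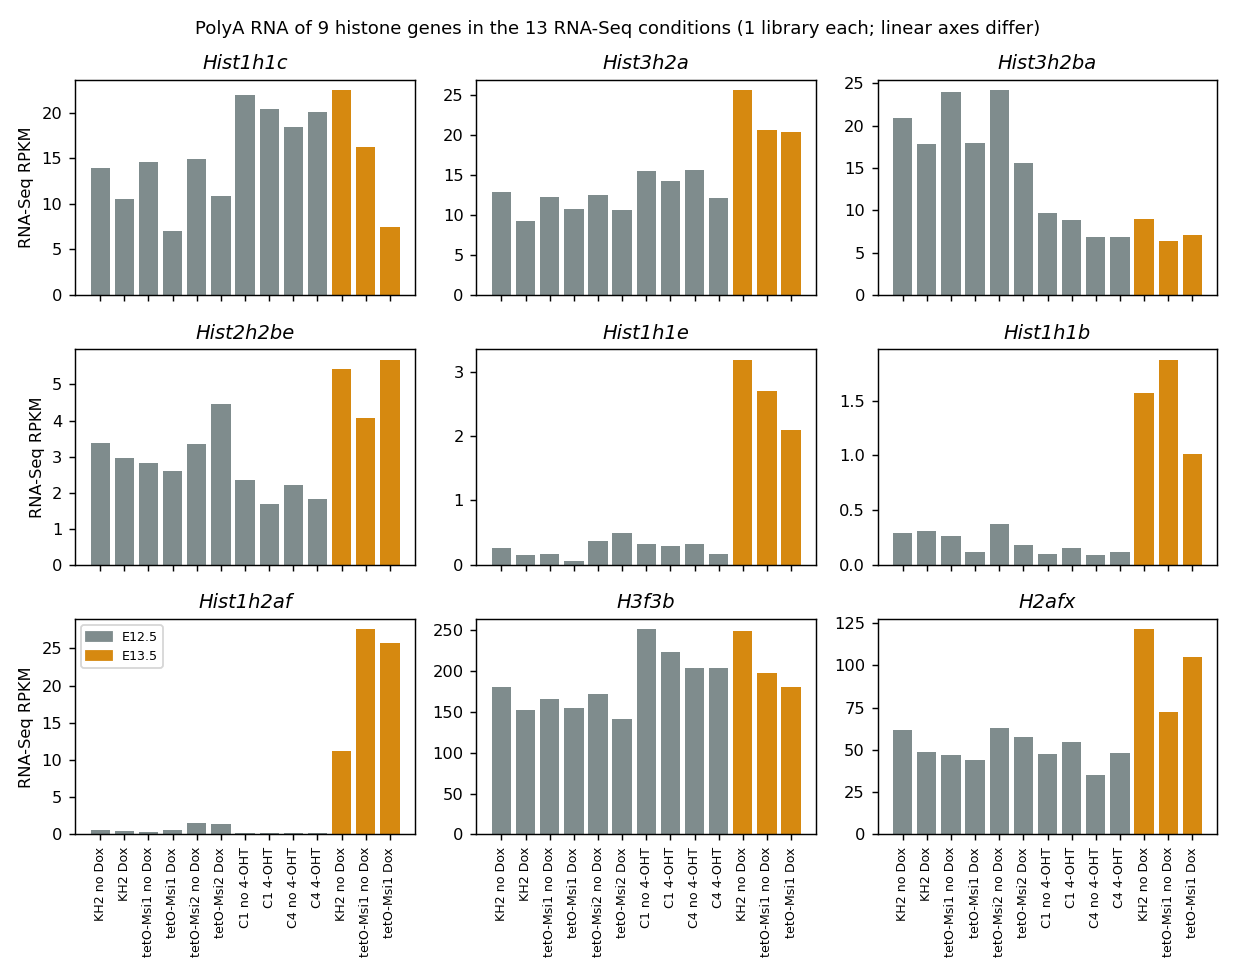
RNA-Seq RPKM (linear axes that differ between panels) of 9 histone genes in the 13 conditions, with E12.5 in grey and E13.5 in orange. Hist1h1e, Hist1h1b and Hist1h2af stand far higher at E13.5, while Hist1h1c is lowest, at 7.04 and 7.42, in the Dox-treated tetO-Msi1 cells of each stage.

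The stage comparison depends on the scale. Reads in listed genes made up 28.2% to 32.0% of the total that the E13.5 RPKM values imply, 32.1% to 34.1% in C1 and C4, and 14.9% to 15.8% in the KH2 and tetO lines at E12.5. With each library rescaled to its median gene, an alternative added after the data were seen, 18 of 36 replication-dependent genes and 0 of 8 variants were higher in all E13.5 conditions, against 5.84% of all genes. Hist1h1a, Hist1h1b, Hist1h1d, Hist1h1e and Hist1h2af were among the 18, whereas Hist3h2a was not. Of the 14 mostly unique genes, 6 were. Fewer cells of a kind and less RNA per cell cannot be told apart in these bulk samples.

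The lines also differed at E12.5. In footprints, 42 of 66 replication-dependent genes and 0 of 8 variants were lower in all 4 C1 and C4 libraries than in all 4 KH2 and tetO-Msi1 libraries, against 3.60% of all genes. The count was uneven: 17 of 18 for H2B, 11 of 11 for H3, 10 of 19 for H2A, 3 of 5 for H1 and 1 of 13 for H4. Of the 13 mostly unique genes, 7 were lower. Rescaled to the median gene it became 63 of 66 replication-dependent genes and 6 of 8 variants, and to 11 of 13 mostly unique replication-dependent genes, against 21.3% of all genes. In polyA RNA, 5 of 7 variants (H2afj, H2afy, H2afy2, H3f3a and H3f3b) and 1 of 36 replication-dependent genes (Hist1h1c) were higher in C1 and C4, against 56.3% of all genes. Hist1h2af, Hist2h2be and Hist3h2ba were lower, against 7.01% of all genes. Rescaled, H2afj and H2afy2 were higher, against 25.0% of all genes, and 0 replication-dependent genes were, while 5 replication-dependent genes and 3 variants were lower, against 25.6% of all genes.

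Cells given Dox or 4-OHT were compared with untreated cells of the same line, with KH2 and C1 as the controls for the drugs. In footprints, Dox left the replication-dependent genes of KH2 cells near their untreated level: the median log2 change of 65 genes was 0.01, with a range of −0.07 to 0.51, and the median of all genes was 0.09. By 1.5-fold or more 0 of the 65 changed, against 22.4% of all genes in either direction. The extreme was Hist2h2be, an H2B gene, at 0.51 (122 against 86.1 RPKM, 95% counting interval 0.31 to 0.70). Among variants H2afz was highest, at 0.58 (interval 0.12 to 1.04) from 97 and 61 reads.

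In tetO-Msi1 cells every one of 66 replication-dependent genes had a lower footprint level with Dox. The median log2 change was −0.66, the range −0.77 to −0.42, and the median of all genes −0.05. At least 1.5-fold lower were 48 of 66, against 14.5% of all genes, and 0 were 2-fold lower, against 5.65%. Family medians were −0.70 for H2A, −0.68 for H1, −0.68 for H2B, −0.62 for H4 and −0.55 for H3. The 13 mostly unique genes had a median of −0.65. Hist1h1c had 275 RPKM with Dox and 408 without (log2 −0.57, interval −0.65 to −0.49). Hist1h1d had 292 and 474 (−0.70, interval −0.77 to −0.62).

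The variants did not move together in tetO-Msi1 cells. H2afx had 253 RPKM with Dox and 403 without (log2 −0.67, interval −0.77 to −0.57). H2afj had the lowest log2 change of any member, −0.83, at 103 against 184 RPKM. H3f3b had −0.20 and H2afv 0.16, with an interval that included 0 for H2afv. H2afy had 0.34 (interval 0.05 to 0.64). With each comparison centred on the median of all genes, the tetO-Msi1 change was below the KH2 change in all 65 replication-dependent genes measured in both, with a median difference of −0.51. At least 1.5-fold lower in that difference were 20 of 65, against 15.9% of all genes.

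The C1 line, which has no Cre, showed a broad shift with 4-OHT: the median footprint change of all genes was −1.25 on the log2 scale, and 66.5% of genes were at least 2-fold lower. Replication-dependent genes had a median of −0.39 (range −0.87 to −0.07, n = 66), with 0 at least 2-fold lower. Variants had a median of −1.38, and 5 of 8 were at least 2-fold lower. These were H3f3a (248 against 722 RPKM, log2 −1.54), H3f3b (−1.42), H2afv (−1.47), H2afy (−1.51) and H2afy2 (−1.41). H2afx and H2afj had −0.41 and −0.52, and H2afz −0.74. Relative to the median of all genes the replication-dependent median was 0.86, and 18 of 66 were at least 2-fold higher, against 7.12% of all genes. Reads in listed genes were 28.5% of the implied total in C1 without 4-OHT and 11.2% with it, against 7.53% and 7.46% in C4 and 32.1%, 12.3%, 10.8% and 7.85% in KH2 without and with Dox and tetO-Msi1 without and with Dox. In KH2 without Dox 66.7% of the listed reads lay in 1 gene, Hes7, and without the gene with most reads in each library the KH2 and tetO-Msi1 shares were 10.7%, 10.1%, 9.57% and 7.57%, and that of C1 without 4-OHT 28.3%. The part of this in the C1 changes was not tested.

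In C4 cells, which carry the Cre, footprints of replication-dependent genes were higher with 4-OHT. The median log2 change was 1.00 (range −0.12 to 1.22, n = 66) and that of all genes −0.12. At least 2-fold higher were 33 of 66, against 3.65% of all genes, and at least 1.5-fold higher 63 of 66, against 10.1%. Family medians were 1.17 for H3, with 11 of 11 genes at least 2-fold higher, 1.01 for H4, 1.00 for H2B, 0.96 for H1 and 0.90 for H2A. The 13 mostly unique genes had a median of 0.81, with 4 at least 2-fold higher. The largest was Hist1h2ba, at 120 against 51.2 RPKM (log2 1.23, interval 1.07 to 1.38). Only 55.9% of its 31-base windows are unique, so its reads may in part be those of other genes. The only gene below 0 was Hist4h4 (−0.13, interval −0.51 to 0.26). Cell-type markers moved in the same libraries: relative to the median of all genes, 2 of 7 glia markers were at least 2-fold lower, against 3.99% of all genes. These were Gfap (12.7 against 30.1 RPKM) and Aqp4 (10.6 against 26.8), while 4 neuron markers had a median log2 change of −0.63. Their part in the C4 result was not tested.

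Single H1 genes in C4 cells gave similar values. Hist1h1a had 57.6 RPKM with 4-OHT and 26.9 without (log2 1.10), and Hist1h1b 90.5 and 44.5 (1.02). Hist1h1c had 185 and 95.8 (0.95, interval 0.86 to 1.04). Hist1h1e was lower at 0.71. Of the variants, H2afx (0.85, interval 0.75 to 0.95) and H2afj (0.84) lay near the replication-dependent genes. H3f3b had −0.14, H2afv −0.20, H2afy −0.54, H2afy2 0.37 and H2afz 0.25. H2afx and H2afj were thus the 2 variants with the highest changes in C4 and the lowest in tetO-Msi1. In C1 theirs were the 2 least negative changes. Of their 31-base windows 70.1% and 63.9% are unique, so their reads may in part be those of other genes. H2afv and H2afy, with 100% of windows unique, had the negative C4 changes given here.

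The C4 result depends on its control. After centring each line, the C4 change exceeded the C1 change in 53 of 66 replication-dependent genes, with a median difference of 0.30 (range −1.03 to 0.75). At least 1.5-fold higher were 2 of 66, against 17.6% of all genes. C4 with 4-OHT against C1 with 4-OHT gave a median of 0.16. Untreated C4 cells had the lowest footprint levels of the 8 libraries, as the plot of family levels shows, and how far the change reflects that 1 library has no replicate check.

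**Figure D4:**
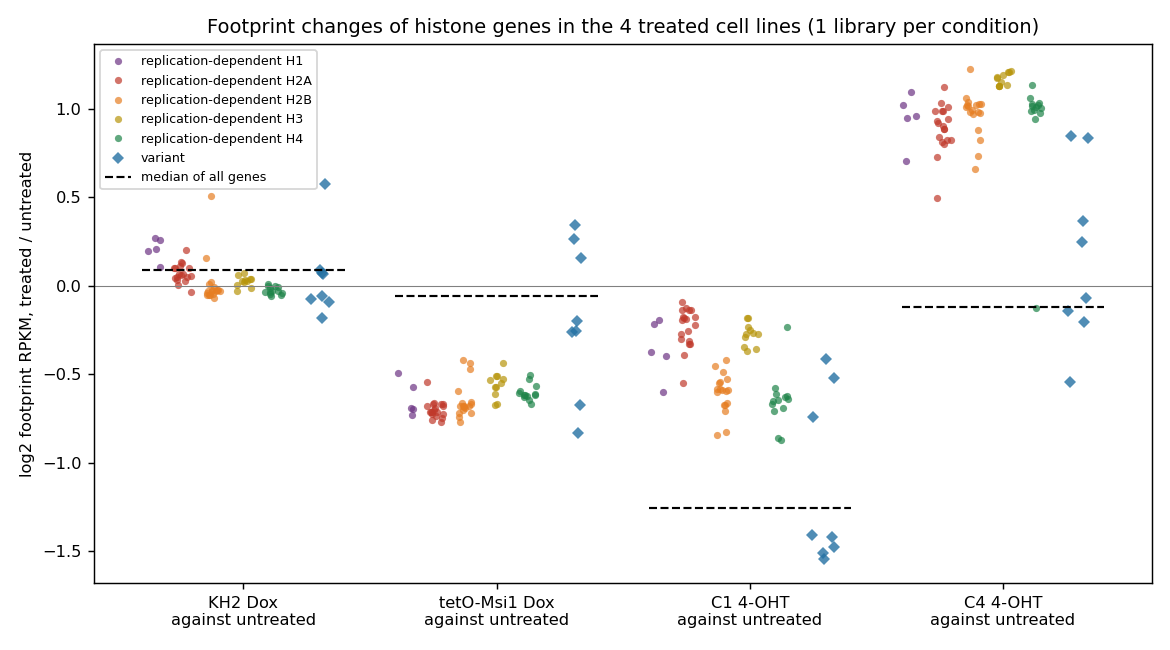
Log2 change of footprint RPKM, treated over untreated, for each replication-dependent gene by family (circles) and each variant (diamonds) in the 4 lines, with the median of all genes as a dashed line. Replication-dependent genes centre on 0.01 in KH2, −0.66 in tetO-Msi1, −0.39 in C1 and 1.00 in C4, and in C1 the median of all genes lies below them at −1.25.

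PolyA RNA of histone genes changed less. Of the 12 members with a mean of at least 1 RPKM in each E12.5 comparison, 0 changed by 2-fold with 0.5 added to each RPKM. Of all genes, 0.0984% did in KH2, 0.354% in tetO-Msi1, 0.387% in tetO-Msi2, 0.110% in C1 and 1.14% in C4. As plain ratios, 2 genes passed 2-fold. Hist1h2ba in KH2 cells had 1.69 RPKM with Dox and 3.55 without (84 and 101 reads, log2 −1.07, interval −1.49 to −0.66). The other was Hist1h1c, in tetO-Msi1 cells. It had 7.04 RPKM with Dox and 14.6 without at E12.5 (224 and 1199 reads, log2 −1.05, interval −1.26 to −0.84), and 7.42 against 16.3 at E13.5 (747 and 2076 reads, log2 −1.13, interval −1.25 to −1.01). The E13.5 change made it 1 of 18 members past 2-fold, against 0.374% of all genes lower by that much. Hist1h1c also had lower RNA with Dox in KH2 cells, 10.5 against 13.9 RPKM (log2 −0.40, interval −0.54 to −0.26), and in tetO-Msi2 cells (log2 −0.46). It had 20.4 against 22.0 RPKM in C1 and a log2 change of 0.12 in C4 with 4-OHT. Its RNA was thus lower with Dox in all 3 lines that received it, whereas its footprint change in KH2 was 0.27.

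Other named changes in polyA RNA were smaller. Hist3h2ba had 15.5 against 24.2 RPKM in tetO-Msi2 cells (log2 −0.64). H3f3a was higher there, 8.97 against 5.25 RPKM (0.77), and has no unique window. H2afj had 57.1 against 37.4 RPKM in tetO-Msi1 cells at E13.5 (0.61), and H2afx 47.8 against 35.1 in C4 (0.45). In tetO-Msi1 cells at E12.5 these 2 variants had log2 changes of −0.09 each, with intervals that included 0.

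The 2 stages gave tetO-Msi1 cells a test, in edgeR's quasi-likelihood model with stage as a block and 1 residual degree of freedom. The prior degrees of freedom were infinite, so the spread used came from all genes together and not from each gene alone. With Benjamini-Hochberg adjustment 430 of 11938 genes had an adjusted p under 0.05, 3.60% of those tested, with 213 higher and 217 lower with Dox. Of 19 members tested, 1 was called: Hist1h1c fell by 1.13 on the log2 scale (SE 0.17, edgeR adjusted p = 7.47e-08), lower with Dox at both stages. The lower calls were 1.82% of all genes and took in other lists: the neuron marker Snap25 (log2 −1.49, edgeR adjusted p = 0.00632), the glia marker Gfap (−0.77, edgeR adjusted p = 0.00675) and the S-phase gene Tyms (−0.65, edgeR adjusted p = 0.0132). They were 1 of 4 neuron markers, 1 of 5 glia markers and 1 of 16 S-phase genes tested. The medians of these lists were near 0, at log2 0.07, 0.10 and −0.05. The part of such genes in the Hist1h1c call was not tested. At an unadjusted p under 0.05 there were 4 members, Hist1h1c among them. Hist1h1b had −0.98 (edgeR adjusted p = 0.129), Hist1h1d −0.88 (edgeR adjusted p = 0.247) and H2afy 0.36 (edgeR adjusted p = 0.216). The call on Hist1h1c was lost when the change in KH2 cells with Dox was subtracted: −0.77, edgeR adjusted p = 0.69, with 0 of 19 members called. It was also lost without the stage block, where 0 genes were called.

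Translational efficiency (TE), the footprint RPKM over the RNA RPKM of a gene, was compared in genes with more than 5 reads in both assays and an mRNA change under 1.5-fold, with 3-fold as the limit. The criteria could be met by 14 members in KH2, 10 in tetO-Msi1, 17 in C1 and 17 in C4. No member changed TE by 3-fold in KH2, tetO-Msi1 or C4, where 1.10%, 1.29% and 2.60% of all genes did. In C1, 3 variants were lower by more than 3-fold, H3f3a (log2 −1.90), H2afy (−1.61) and H2afv (−1.60), against 38.4% of all genes, whose median was −1.46. Median log2 TE changes of replication-dependent genes were 0.49 in KH2 (n = 8), −0.30 in tetO-Msi1 (n = 3), −0.35 in C1 (n = 10) and 0.88 in C4 (n = 10).

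Genes that make, process and deposit histones were followed as lists. Of 18 genes of histone mRNA 3′ processing and decay, 14 had RNA-Seq rows, and 0 changed by 2-fold in any of the 6 mRNA comparisons. Slbp had at most 16.7 RPKM in the KH2 and tetO lines at E12.5, 32.2 to 35.3 at E13.5 and 37.0 to 54.8 in C1 and C4, where 56.3% of all genes were higher than in the KH2 and tetO lines and the share of listed reads differed as given above. Of 19 measured histone chaperone genes 0 changed by 2-fold in RNA. Among 16 genes of DNA replication and S phase, 2 were at least 2-fold higher in C4 RNA with 4-OHT, the cyclin genes Ccne1 and Ccna2, against 0.680% of all genes. The list's median log2 change was 0.64, against 0.37 in C1 and 0.07 for all genes in C4. In footprints relative to the median of all genes, the S-phase list had a median of 0.29 in C4, with Rrm2 and Tyms, genes of nucleotide synthesis, at least 2-fold higher, against 5.08% of all genes, and 0.06 in C1, with Ccne1 higher. The 3′ processing list had −0.10 in C4, with Sympk lower, and −0.23 in C1. The part of S-phase cells in the footprint changes was not tested.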

How the data were processed

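PolyA-selected RNA (14 libraries) and ribosome footprints (8 libraries) were measured in mouse neural stem cells. The authors mapped reads with Bowtie and TopHat to mm9 (versions, and the treatment of reads that map to several places, are not given in the sources used here) and deposited a read count per gene or over listed coding exons. The authors also deposited RPKM values, that count divided by length and by a library total larger than the listed reads. Samples were grouped by their titles, and 0 columns of unknown samples were met. The labels do not say that libraries came from separate cultures or animals, so p-values cover no spread beyond these samples. That spread was estimated over all genes together and not for each gene alone.

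The members and lists were chosen with earlier results of these data known. Named genes were all variants, the H1 genes with more than 5 footprint reads, the 3 genes per core family with most footprint reads and the 2 with most polyA RNA, and the extremes of each change. Treated RPKM was compared with untreated RPKM, as log2 after adding 0.5 for class medians and counts, and as the plain ratio with a 95% counting interval (from the reads, normal approximation on the log scale) for single genes. Counts of members past a fold needed more than 5 footprint reads or a mean of 1 RPKM of RNA. Replicates exist only across the stages of tetO-Msi1, tested on counts with edgeR 4.0.16 in R 4.3.3 (quasi-likelihood, TMM, stage as block, at least 1 CPM in 2 libraries, Benjamini-Hochberg adjustment). In simulated data for that comparison (11938 genes, 200 of them changed 4-fold), the test called 200 of the changed genes and 12 others. The simulation gave all genes the common dispersion fitted to these data and no stage effect. It therefore does not show how the test performs where the spread differs between genes. Sequence features came from NCBIM37 and its annotation, by exact matching in Python 3.11.15. Alternatives were other constants, read limits, scalings, controls and tools.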

Additional observations from a re-analysis of the deposited data

Results flagged for a closer look

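As deposited, the median log2 footprint change of replication-dependent histone genes with 4-OHT was 1.00 in C4 cells, where 65 of 66 genes were above 0, and −0.39 in C1 cells, where 66 of 66 were below 0. The 2 lines thus moved in opposite directions, with 1 library per condition, and the difference was not tested. Relative to the median of all genes both were positive, at 1.12 in C4 and 0.86 in C1.

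The same median with Dox was −0.66 in tetO-Msi1 cells, where 66 of 66 genes were below 0, and 0.01 in KH2 cells, where 37 of 65 were above 0. This difference was not tested either, and it kept its direction after centring, at −0.61 against −0.08.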

How the results depend on the processing

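The difference between class medians of the footprint to polyA RNA ratio, 8.89 on the log2 scale as the median of 8 conditions, became 10.9 with 0.1 added to each RPKM, 6.99 with 2 added, 8.53 with more than 50 footprint reads, 9.46 with no read limit, 6.48 with classes set by the stem-loop, and 8.14 in mostly unique members; it stayed positive throughout. Members past 2-fold in polyA RNA numbered 1 in KH2 and 1 in tetO-Msi1 at E12.5 with 0.1 added, and 0 in tetO-Msi1 at E13.5 with 2 added. At 1.5-fold, 2 members were lower in KH2 (0.472% of all genes) and 1 in tetO-Msi1 at E12.5 (1.70%). In tetO-Msi2 1 was higher and 1 lower, against 2.05% and 1.03% of all genes. In tetO-Msi1 at E13.5 1 was higher and 4 were lower, against 5.81% and 2.41%. Centring on the median of all genes gave replication-dependent footprint medians of −0.0781 in KH2, 0.86 in C1 (reversed) and 1.12 in C4, with 18 and 53 genes at least 2-fold higher in C1 and C4, against 7.12% and 5.08% of all genes. As deposited, at 1.5-fold, 48 were lower in tetO-Msi1 (14.5% of all genes), 22 lower in C1 (84.5%) and 63 higher in C4 (10.1%). Against C1 with 4-OHT the C4 median was 0.16. For TE in C1, 5 members passed at 2-fold, all of them variants that were lower, where the median of all genes was −1.46. After centring 1 other member passed there, Hist1h1a, which was higher (log2 1.75). In C4 2 passed without the mRNA limit, 4 at 2-fold and 2 after centring, all of them higher. The shares of all genes at these TE settings are not given here. The edgeR test without the replicate block (no stage block) called 0 members, as it did with the KH2 response subtracted, where Hist1h1e (0.21) and Hist3h2a (0.32) changed sign. Leaving out either technical replicate left 1 member called (1 to 1) and 1 member past 2-fold at E13.5. With KH2 plus Dox as control, the RNA changes of H3f3b (0.0201) and H3f3a (0.0458) in tetO-Msi1, and of Hist1h1c (0.0450) and H2afx (0.24) in tetO-Msi2, changed sign. With C1 plus 4-OHT as control, those of Hist1h1c (−0.0261), H2afx (−0.19) and H3f3a (0.63) in C4 did. Except where fewer genes, other thresholds or other samples are the construction itself, the cause was not tested. The edgeR calls over all genes were 430, and 9 with the KH2 response subtracted, 103 by DESeq2 and 0 without the block.

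The Ribo-Seq library with fewest reads was that of Dox-treated tetO-Msi1 cells, at 657288. Shared sequence limits the core families, most of whose members cannot be read singly, and restricting them to mostly unique genes, an alternative added after the data were seen, lowered the top 100 count to at most 7 of 13 and turned the order of H1 and core medians.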

Other observations

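Hist1h2ba, the testis-type H2B gene, had 26 to 119 RNA-Seq reads in each of the 8 conditions that also have a Ribo-Seq library and 0 reads in each of the 5 that do not, the tetO-Msi2 cells and the E13.5 cells, which held 13666388 to 60791605 reads in listed genes per condition. Its coding exon has 60% of 40-base windows unique, and its footprint level was 51.2 to 223 RPKM. The cause was not tested.

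Outside the histone genes the stem-loop consensus was matched within 150 bases of the stop codon of 4 genes, namely 1700014N06Rik, Btbd10, Ppm1b and Tmem194.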
